A study of Mus musculus with 21 samples.

Results

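The 10 genes described here encode a route from cAMP and calcium signals to transcription: the cAMP response element (CRE) binding factors Creb1 and Crem, the CREB coactivators Crtc2 and Crtc3, the salt-inducible kinases Sik1, Sik2 and Sik3, and the class IIa histone deacetylases Hdac4, Hdac5 and Hdac7. They were chosen by symbol, 10 of the 53738 gene symbols in the table, and all 10 passed the expression filter (a mean over libraries of 1 TPM or more), as 11819 symbols did. TPM is an abundance corrected for transcript length and brought to a common total across libraries.

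RNA was taken from quadriceps muscle of male wildtype C57/Bl6 mice, aged 22 to 26 weeks at sacrifice, and sequenced as bulk tissue in 7 groups of 3 libraries. Sedentary mice did not exercise. Untrained and trained mice ran once on a treadmill until exhausted and were sacrificed 0 h, 6 h or 72 h later, and the trained mice had lived with running wheels for 12 weeks before. The bout followed training without rest days, and its length depended on each mouse's own capacity. No trained group without the bout is part of the design, so that training alone cannot be told apart from training with the bout. Tissue was crushed whole, so fewer cells of a type and less RNA per cell cannot be told apart.

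The same column of the table occurred under both training states: replicate 1 of untrained 0 h equalled replicate 1 of trained 0 h in all 25037 symbols above 0, where any other pair of libraries shared at most 10 such values. The table therefore held 20 distinct libraries, the trained and untrained groups at 0 h had 1 library in common, and the tests of the 10 genes that use 0 h libraries were run with and without it. Sequencing depth was unknown, because TPM keeps no read counts, and the precision of each value rested on the 3 libraries of its group. Between 11048 and 11890 symbols per library reached 1 TPM. Genes of the mitochondrial genome held 37.7% to 40.6% of the TPM in the 0 h groups and 42.2% to 46.9% in the sedentary group. At 6 h they held 40.6% to 43.7% in untrained and 45.7% to 47.0% in trained muscle. At 72 h they held 42.3% to 44.3% in untrained and 46.7% to 48.0% in trained muscle. The results were also computed after rescaling without these genes and the highest 10 genes, where 14443 genes passed the filter. Below, this is called rescaling without the mitochondrial genome. All 9 markers of skeletal muscle fibres were detected in every group, with a summed level of 87683 to 117449.8 TPM.

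In resting cells, SIKs phosphorylate CRTCs and class IIa HDACs, which are then held in the cytoplasm by 14-3-3 proteins. When cAMP rises, protein kinase A inhibits the SIKs, CRTCs enter the nucleus and join CREB at CREs, and class IIa HDACs repress the MEF2 factors of muscle. Sik1 and Crem, which gives rise to the short repressor ICER, are themselves CRE-driven genes that restrain the pathway. These are regulations of proteins, whereas the values below are levels of mRNA.

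The palindromic CRE has the letters TGACGTCA, and its half-site TGACG or, on the other strand, CGTCA. RefSeq promoter windows on GRCm38.p6, from 250 bases before to 50 after the start of a gene, were found for 7 of the 10 genes, and not for Crem, Crtc2 and Sik1. A half-site on either strand stood in the windows of 4 of these 7 (Sik2, Sik3, Hdac4 and Hdac5), and in 20.8% of all 32851 windows. The first count is by gene, although Hdac7 had 4 windows, and the second is by window, so these shares are not like for like. The full CRE stood in none of the 7, and in 1.79% of all windows. Of 20 CRE-driven targets listed from other tissues, again counted by gene, 18 had a window, 15 held a half-site and only Dusp1 held the full CRE. The stretches below show half-sites in capitals for the 4 members and for 4 targets whose levels are described later, Dusp1 being chosen after its window was seen. The coordinates are of GRCm38.p6, an older build than the GRCm39 used for expression, and a match is a description of letters and not of binding.
Sik2, chr9:51009053-51009082, minus strand, bases -9 to 20 from the start: cggcccccTGACGtcggctcaCGTCAgcgc
Sik3, chr9:46012683-46012712, plus strand, bases -137 to -108 from the start: gcagTGACGcgcgtccgcacgTGACGcgcg
Hdac4, chr1:92180319-92180348, minus strand, bases -7 to 22 from the start: gaggggcggggctggggcgccTGACGggcg
Hdac5, chr11:102230148-102230177, minus strand, bases -5 to 24 from the start: ggtcgggtcacgTGACGagagTGACGtctc
Fos, chr12:85473820-85473849, plus strand, bases -70 to -41 from the start: ccagTGACGtaggaagtccatccattcaca
Fosb, chr7:19310080-19310109, minus strand, bases -64 to -35 from the start: cgggTGACGcaagcgcgggggcgggtcccg
Nr4a2, chr2:57124101-57124130, minus strand, bases -127 to -98 from the start: gggcTGACGgggccgcTGACGcgcttggcc
Dusp1, chr17:26508590-26508619, minus strand, bases -147 to -118 from the start: cgggTGACGTCAccgcccggtcacgtgtct

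Across the bout, Sik1 and Crem rose and 8 of the 10 genes did not pass both thresholds against sedentary muscle at any time. Calls required a fold of 1.5 or more in either direction together with a limma p below 0.05 after Benjamini-Hochberg adjustment over all genes tested, on the log2(TPM + 0.5) scale. At 0 h, 2 of 10 genes were called in untrained muscle, where 3.59% of all genes tested were called, and the same 2 in trained muscle, where 3.74% were. Both stayed called without the shared library, where 2.95% and 3.27% of all genes were. At 6 h, untrained muscle had 2 of 10 called against 4.42% of all genes, and trained muscle 1 of 10 against 3.85%. At 72 h, 0 of 10 were called in untrained muscle, with 0.00846% of all genes called and 0 of 10 genes at an unadjusted p below 0.05, and 0 of 10 in trained muscle, with 0.169% of all genes called and likewise 0 of 10 at an unadjusted p below 0.05. Trained and untrained groups were set against the same sedentary libraries, so these counts are not independent.

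Smaller shifts at 0 h took in more of the genes. In untrained muscle at 0 h, the libraries of 7 of 10 genes did not overlap the sedentary libraries, compared to 27.2% of all genes, and in trained muscle those of 9 of 10, compared to 29.1%. With the shared library left out, which leaves 2 libraries in each 0 h group, these counts were 7 and 10 of 10, compared to 34.2% and 39.2% of all genes. At 6 h the same held for 3 of 10 in untrained muscle, compared to 20.4%, and 4 of 10 in trained muscle, compared to 28.9%. At 72 h it held for 0 of 10 in both, compared to 12.2% and 19.4%. The median log2 fold change of the 10 genes was 0.28 in untrained and 0.34 in trained muscle at 0 h, while that of all tested genes was 0.10 and 0.13. The medians of the 10 genes were 0.26 and 0.47 without the shared library, and those of all tested genes 0.08 and 0.12. After median-of-ratios scaling, which lowered the all-gene medians by 0.11 and 0.14, the medians of the 10 genes were 0.18 and 0.20.

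**Figure D1:**
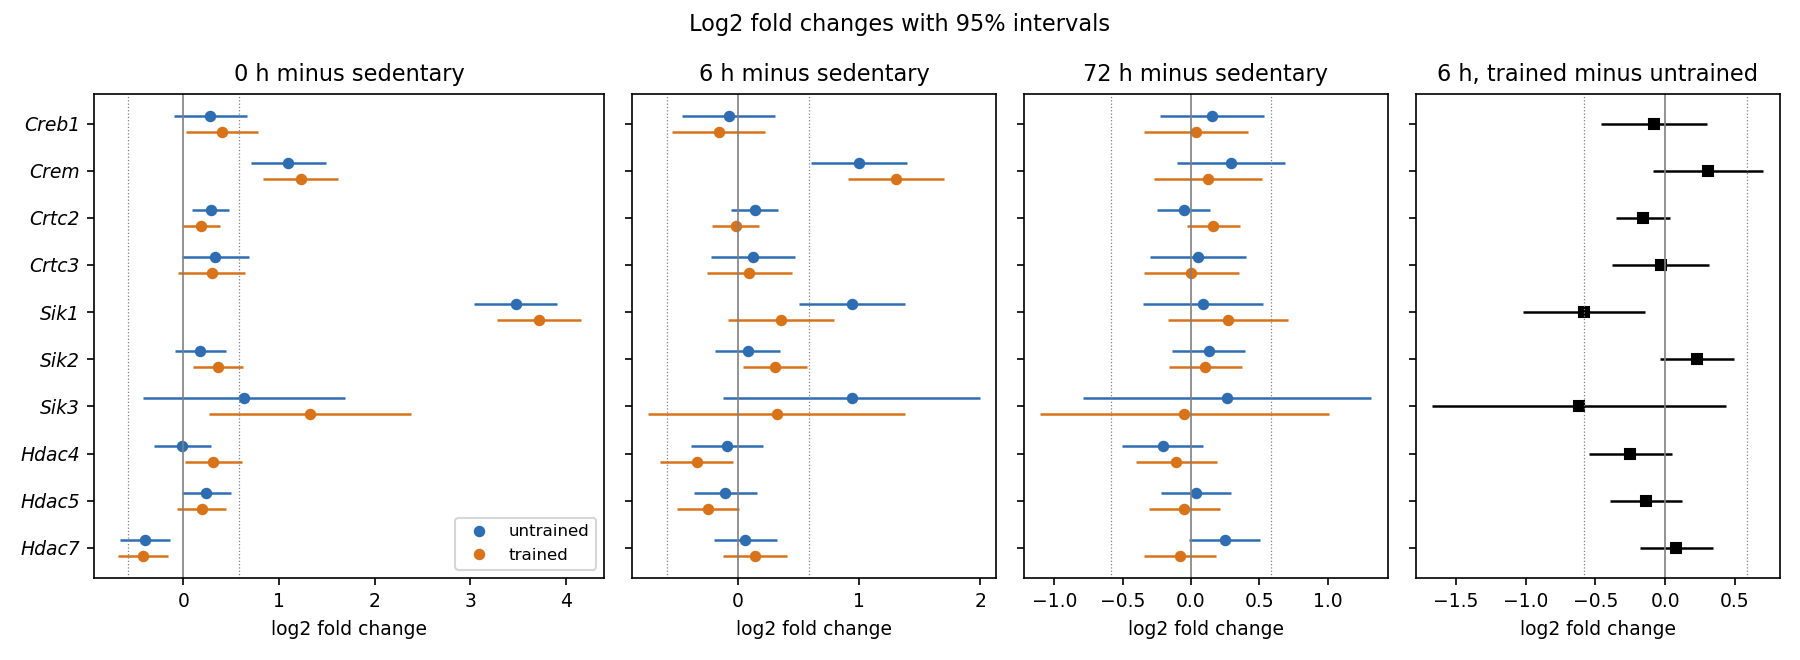
Log2 fold changes (x axis, on the log2(TPM + 0.5) scale, separate ranges per panel) of the 10 genes against sedentary muscle in 3 panels by time after the bout, untrained in blue and trained in orange, and between trained and untrained muscle at 6 h in black squares. Lines are 95% intervals from limma and dotted lines mark a fold of 1.5. Sik1 and Crem were called at 0 h in both training states. At 6 h Crem was called in both and Sik1 in untrained muscle. Sik3, not called, lay at 1.33 in trained muscle at 0 h (Crem 1.23) and at 0.94 in untrained muscle at 6 h (Crem 1.00). At 72 h every interval includes 0.

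Among the CRE binding factors, Crem responded and Creb1 did not pass the test. Crem, which lies on chromosome 18 and encodes both activators and repressors of CREs, measured 3.43, 4.59 and 5.31 TPM in the 3 sedentary libraries. In untrained muscle it measured 11.2, 9.07 and 9.73 TPM at 0 h, 9.44, 6.82 and 12.2 TPM at 6 h and 5.62, 5.84 and 4.97 TPM at 72 h. The trained values were 11.2, 10.6 and 10.98 TPM at 0 h, 14.4, 9.58 and 11.2 TPM at 6 h and 3.99, 5.19 and 5.37 TPM at 72 h. Every 0 h and 6 h library was therefore above every sedentary and every 72 h library. The 4 early groups overlapped each other, though untrained and trained 0 h muscle did so only through the library counted in both.

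Crem rose 2.14-fold in untrained muscle at 0 h (log2 fold change 1.10 ± 0.186 SE, limma, Benjamini-Hochberg adjusted p = 0.00124). In trained muscle at 0 h it rose 2.34-fold (limma, Benjamini-Hochberg adjusted p = 0.000428). Without the shared library the log2 fold changes were 1.02 in untrained muscle (limma, Benjamini-Hochberg adjusted p = 0.0143) and 1.21 in trained muscle (limma, Benjamini-Hochberg adjusted p = 0.00403). At 6 h Crem was still 1.996-fold higher in untrained muscle (limma, Benjamini-Hochberg adjusted p = 0.00242) and 2.47-fold higher in trained muscle (limma, Benjamini-Hochberg adjusted p = 0.000455). A fit on untrained 6 h and sedentary libraries alone lost the call in untrained muscle (limma, Benjamini-Hochberg adjusted p = 0.143). Between 0 h and 6 h the log2 change of Crem was -0.10 in untrained muscle (95% interval -0.50 to 0.29) and 0.08 in trained muscle (-0.32 to 0.47). Both intervals allow a change of either sign, and the values were -0.02 and 0.09 without the shared library. Gene-level TPM does not separate the 46 annotated transcripts of Crem, ICER among them.

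Creb1, the founding CRE activator (chr1:64571731-64643707, GRCm39), was the lowest of the 10 genes, with a mean of 1.76 TPM over all libraries. It measured 1.296, 1.803 and 1.71 TPM in sedentary muscle. At 0 h it measured 2.01, 2.37 and 1.78 TPM in untrained and 2.01, 2.15 and 2.68 TPM in trained muscle, and at 6 h 1.06, 1.22 and 2.41 and 1.596, 1.297 and 1.25 TPM. The log2 fold change at 0 h was 0.28 in untrained (limma, Benjamini-Hochberg adjusted p = 0.357) and 0.40 in trained muscle (limma, Benjamini-Hochberg adjusted p = 0.161). Leaving out the shared library gave 0.29 (limma, Benjamini-Hochberg adjusted p = 0.512) and 0.47 (limma, Benjamini-Hochberg adjusted p = 0.208). From 0 h to 6 h in trained muscle the log2 change of Creb1 was -0.56 (limma, Benjamini-Hochberg adjusted p = 0.0325), a fold under 1.5 in a comparison where the median of all genes was -0.15. Without the shared library that value was -0.63 (limma, Benjamini-Hochberg adjusted p = 0.0552).

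**Figure D2:**
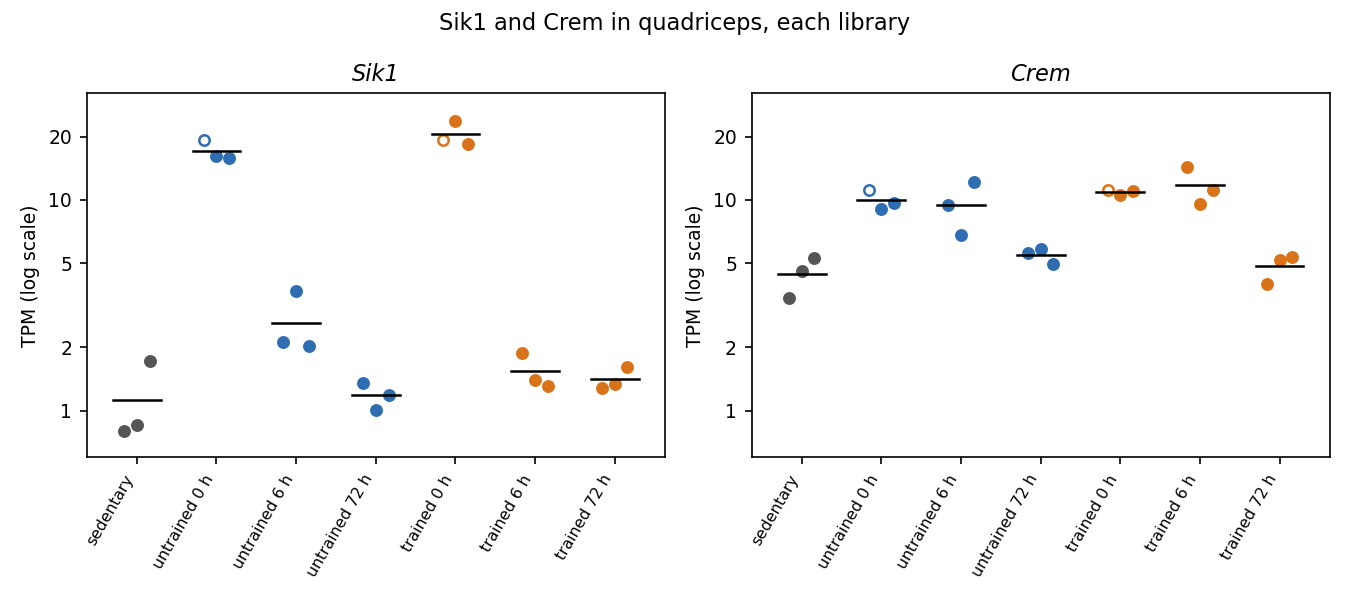
TPM of Sik1 and Crem (y axis, log scale) in each of the 3 libraries per group, with bars at the group means; the open circles are the library shared by both 0 h groups. Sik1 is between 15.9 and 23.7 TPM at 0 h and below 4 TPM in every other library, while Crem is above 6 TPM at both 0 h and 6 h and below 6 TPM elsewhere.

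The CRTC coactivators did not pass the thresholds in any of the 11 comparisons. Crtc2, the CREB coactivator known from hepatic gluconeogenesis (chr3:90161460-90171432), measured 5.08, 5.75 and 5.87 TPM in sedentary muscle, 6.34, 7.399 and 6.92 TPM in untrained and 6.34, 6.46 and 6.38 TPM in trained muscle at 0 h. All 0 h libraries were above all sedentary ones, by 0.28 on the log2 scale in untrained (limma, Benjamini-Hochberg adjusted p = 0.0697) and 0.19 in trained muscle (limma, Benjamini-Hochberg adjusted p = 0.199). Leaving out the shared library gave 0.34 (limma, Benjamini-Hochberg adjusted p = 0.0956) and 0.19 (limma, Benjamini-Hochberg adjusted p = 0.294). Crtc3, its paralog (chr7:80236375-80338685), measured 2.08, 2.45 and 2.74 TPM in sedentary muscle, 2.83, 3.897 and 2.89 TPM in untrained and 2.83, 3.23 and 3.18 TPM in trained muscle at 0 h. Its log2 fold changes at 0 h were 0.33 (95% interval -0.01 to 0.68) and 0.30 (-0.05 to 0.64), and 0.41 and 0.35 without the shared library. At 6 h and 72 h Crtc2 ranged from 4.76 to 7.08 TPM and Crtc3 from 2.04 to 3.66 TPM, and both ranges overlapped the sedentary libraries.

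Of the kinases, Sik1 showed the largest change among the 10 genes. Sik1, a kinase whose gene is induced by cAMP and by depolarisation (chr17:32058850-32074818), measured 0.805, 0.855 and 1.72 TPM in sedentary muscle. It measured 19.3, 16.2 and 15.9 TPM in untrained and 19.3, 23.7 and 18.4 TPM in trained muscle at 0 h. Every 0 h library lay above every other library of the table. Sik1 was 11.1-fold higher in untrained muscle (log2 fold change 3.48 ± 0.207 SE, limma, Benjamini-Hochberg adjusted p = 3.94e-08). In trained muscle it was 13.2-fold higher (log2 fold change 3.72, limma, Benjamini-Hochberg adjusted p = 1.39e-08). These folds are on the log2(TPM + 0.5) scale, which understates the change of a gene near 1 TPM at rest. Without the shared library the log2 fold changes were 3.39 (limma, Benjamini-Hochberg adjusted p = 2.34e-06) and 3.76 (limma, Benjamini-Hochberg adjusted p = 8.04e-07).

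By 6 h most of the rise of Sik1 was gone. It measured 2.11, 3.698 and 2.04 TPM in untrained and 1.89, 1.41 and 1.32 TPM in trained muscle, and 1.36, 1.005 and 1.19 and 1.28, 1.34 and 1.61 TPM at 72 h. The untrained libraries at 6 h were above the sedentary ones. Of the trained ones, 1 was above all sedentary libraries, and the rest were below only the sedentary library at 1.72 TPM. From 0 h to 6 h Sik1 fell by 2.53 on the log2 scale in untrained muscle (limma, Benjamini-Hochberg adjusted p = 1.22e-06) and by 3.37 in trained muscle (limma, Benjamini-Hochberg adjusted p = 3.52e-08). The log2 changes without the shared library were -2.45 and -3.40, and both stayed called. In these comparisons 1 and 2 of the 10 genes were called, against 4.64% and 6.46% of all genes, and against 4.18% and 5.82% without the shared library. Groups did not overlap for 2 and 6 of the 10, compared to 26.8% and 41.1% of all genes. Compared to sedentary muscle, Sik1 was still 1.92-fold higher at 6 h in untrained muscle (limma, Benjamini-Hochberg adjusted p = 0.00798), a call lost when the 2 groups were fitted alone (limma, Benjamini-Hochberg adjusted p = 0.225). In trained muscle the log2 fold change at 6 h was 0.36 (95% interval -0.08 to 0.80, limma, Benjamini-Hochberg adjusted p = 0.311).

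Whether training altered this return was tested directly and did not pass the correction. At 6 h all 3 trained libraries had less Sik1 than all 3 untrained ones, with a log2 difference of -0.58 (95% interval -1.02 to -0.15, unadjusted p = 0.0122, limma, Benjamini-Hochberg adjusted p = 0.132). The change from 0 h to 6 h was compared between training states in a further test, added after the values were seen, with a trained minus untrained log2 difference of -0.83 as deposited (limma, Benjamini-Hochberg adjusted p = 0.295) and -0.96 without the shared library (limma, Benjamini-Hochberg adjusted p = 0.326). In it, 0.651% of all genes were called as deposited and 0.313% without the shared library. At 0 h the trained minus untrained difference of Sik1 was 0.25 (-0.19 to 0.69), and 0.37 without the shared library. At 72 h it was 0.18 (-0.25 to 0.62).

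Sik2 and Sik3 gave no call. Sik2 (chr9:50800947-50920383), which acts on CRTC2 in several tissues, measured 2.43, 2.46 and 2.88 TPM in sedentary, 2.94, 3.04 and 2.97 TPM in untrained 0 h and 2.94, 3.505 and 4.02 TPM in trained 0 h muscle. Its log2 fold changes were 0.18 (limma, Benjamini-Hochberg adjusted p = 0.412) and 0.36 (limma, Benjamini-Hochberg adjusted p = 0.0793), and without the shared library 0.18 (limma, Benjamini-Hochberg adjusted p = 0.521) and 0.46 (limma, Benjamini-Hochberg adjusted p = 0.0637). Sik3 (chr9:45924102-46135492), a regulator of class IIa HDACs, was even in sedentary muscle at 6.24, 5.91 and 6.57 TPM but uneven after the bout. It measured 21.6, 6.91 and 6.496 TPM in untrained and 21.6, 28.1 and 7.13 TPM in trained muscle at 0 h, 25.6, 8.604 and 8.54 TPM in untrained and 8.23, 7.62 and 7.89 TPM in trained muscle at 6 h. At 72 h it measured 5.87, 6.46 and 11.4 and 5.85, 6.07 and 6.12 TPM. The shared library, trained 0 h replicate 2 and untrained 6 h replicate 1 thus held more than 20 TPM, while the other libraries of these groups held under 9 TPM. The log2 fold change at 0 h was 0.63 (95% interval -0.42 to 1.69) in untrained muscle and 1.33 (limma, Benjamini-Hochberg adjusted p = 0.102) in trained muscle. Without the shared library these values were 0.10 and 1.13, neither of them called, and without trained 0 h replicate 3 the trained value was 1.90 (limma, Benjamini-Hochberg adjusted p = 0.0229), so that 1 library decided the call. At the 6 h time point every library of both exercised groups was above every sedentary library.

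**Figure D3:**
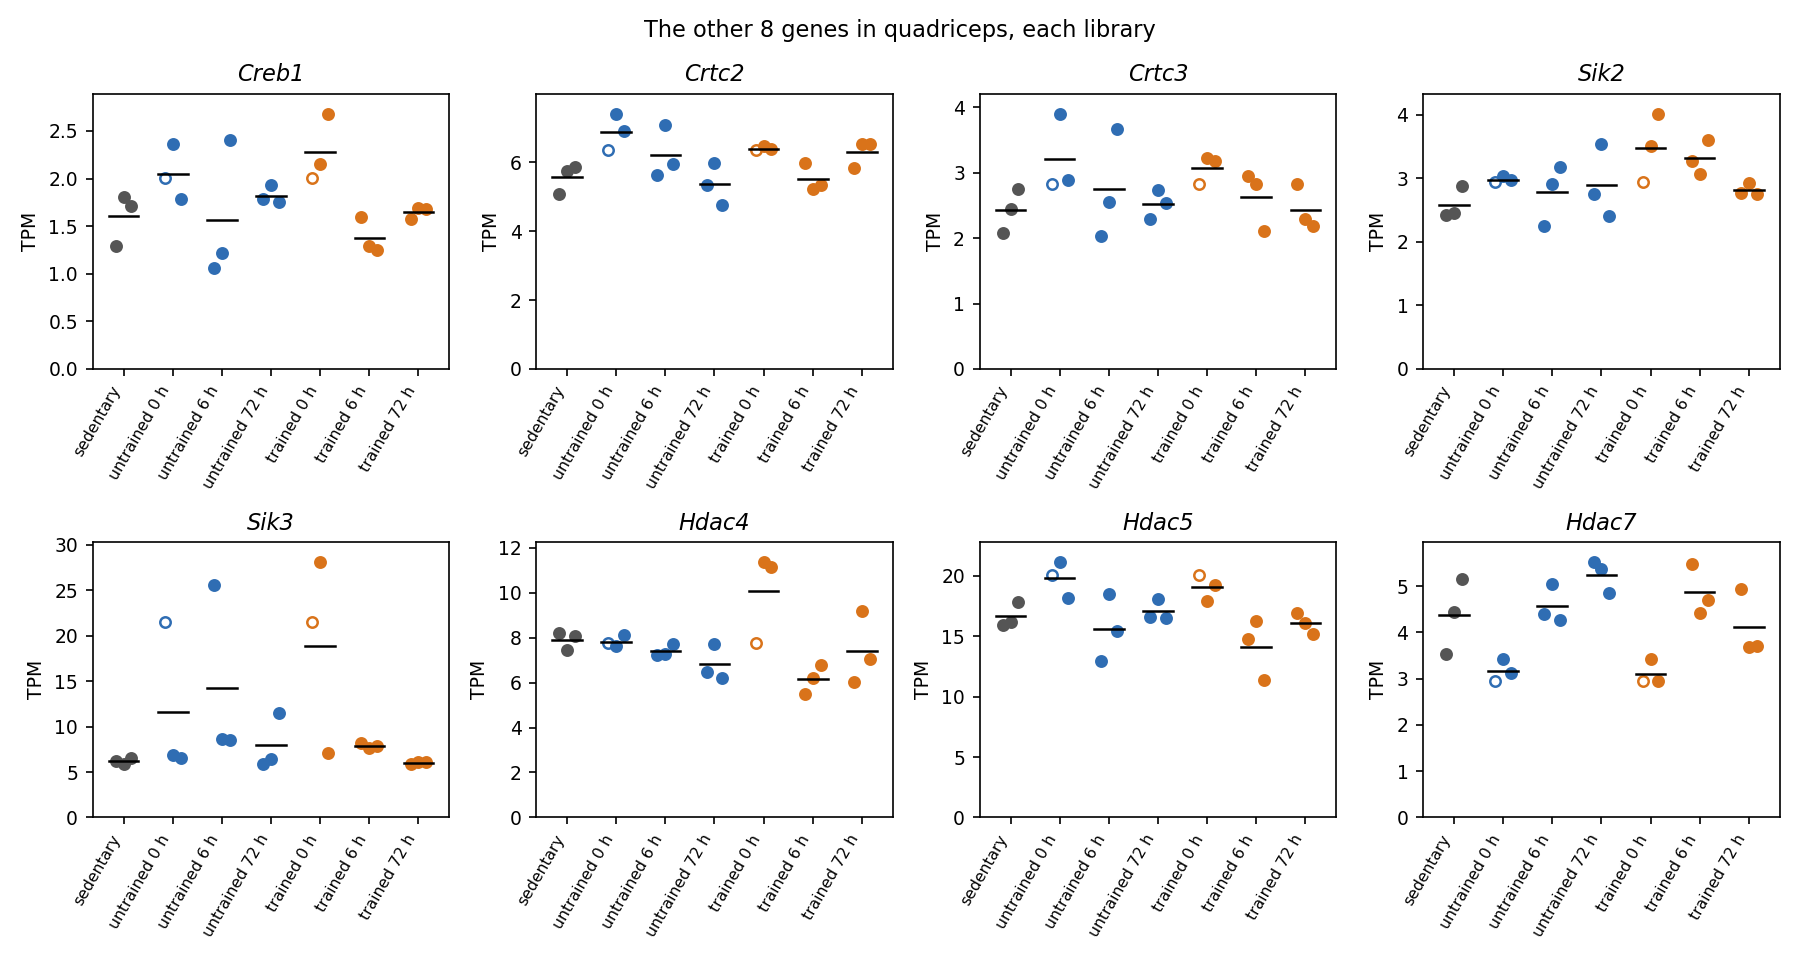
TPM (y axis, linear from 0, separate ranges) of the other 8 genes in each of the 3 libraries per group, with bars at the group means; the open circles are the library shared by both 0 h groups. Sik3 has 1 or 2 libraries above 20 TPM in 3 groups, Hdac4 is highest in trained 0 h replicates 2 and 3, and Hdac7 is lowest in both 0 h groups.

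The class IIa HDACs had log2 changes of both signs around the bout. Hdac4 (chr1:91855937-92123421), which represses MEF2 and responds to denervation in muscle, measured 8.22, 7.46 and 8.05 TPM in sedentary muscle. At 0 h it measured 7.74, 7.62 and 8.099 TPM in untrained and 7.74, 11.3 and 11.1 TPM in trained muscle, where the lowest value is that of the shared library. At 6 h it measured 7.22, 7.28 and 7.703 TPM in untrained and 5.51, 6.22 and 6.77 TPM in trained muscle. The untrained values stayed near the sedentary ones. At 6 h, 2 of the 3 untrained libraries and all 3 trained ones were below all sedentary libraries. The log2 fold changes at 6 h were -0.09 in untrained and -0.34 in trained muscle. Neither was called, nor was the difference between training states at 6 h. The log2 fold changes at 0 h were -0.01 (limma, Benjamini-Hochberg adjusted p = 0.9705) in untrained and 0.31 (limma, Benjamini-Hochberg adjusted p = 0.166) in trained muscle, and -0.01 and 0.48 (limma, Benjamini-Hochberg adjusted p = 0.0508) without the shared library. At 72 h Hdac4 ranged from 6.22 to 7.73 TPM in untrained and from 6.02 to 9.18 TPM in trained muscle.

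Between 0 h and 6 h in trained muscle, Hdac4 fell 1.57-fold (log2 fold change -0.65 ± 0.1404 SE, limma, Benjamini-Hochberg adjusted p = 0.00416). Without the shared library the log2 fold change was -0.82 (limma, Benjamini-Hochberg adjusted p = 0.00138). The call did not hold under median-of-ratios scaling, where the value was -0.49, or after rescaling without the mitochondrial genome, where it was -0.47. The median log2 change of all genes in this comparison was -0.15 as deposited. The call was also lost when the 2 groups were fitted alone (limma, Benjamini-Hochberg adjusted p = 0.0679) and without trained 0 h replicate 2 (-0.56), trained 0 h replicate 3 (-0.57) or trained 6 h replicate 1 (-0.58). In untrained muscle the change from 0 h to 6 h was -0.07 (95% interval -0.37 to 0.22). The difference between these changes was -0.57 as deposited (limma, Benjamini-Hochberg adjusted p = 0.289) and -0.74 without the shared library (limma, Benjamini-Hochberg adjusted p = 0.141). At 0 h itself Hdac4 differed between trained and untrained muscle by 0.33 as deposited (limma, Benjamini-Hochberg adjusted p = 1.000) and by 0.49 without the shared library (limma, Benjamini-Hochberg adjusted p = 0.983).

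Hdac5 (chr11:102085245-102121072), a calcium-regulated repressor of MEF2 targets, was the most abundant of the 10 genes with a mean of 16.9 TPM. It measured 15.9, 16.2 and 17.8 TPM in sedentary muscle, 20.1, 21.1 and 18.2 TPM in untrained and 20.1, 17.9 and 19.3 TPM in trained muscle at 0 h. At 6 h it measured 12.99, 18.5 and 15.4 TPM and 14.8, 16.3 and 11.4 TPM. Its log2 fold changes at 0 h were 0.24 and 0.19, and 0.23 and 0.15 without the shared library, with none of the 4 values past an adjusted p of 0.05 (limma). From 0 h to 6 h the log2 change was -0.34 in untrained (limma, Benjamini-Hochberg adjusted p = 0.0795) and -0.43 in trained muscle (limma, Benjamini-Hochberg adjusted p = 0.0175), folds under 1.5. With the shared library left out these were -0.33 (limma, Benjamini-Hochberg adjusted p = 0.192) and -0.40 (limma, Benjamini-Hochberg adjusted p = 0.0724), so that the trained value no longer passed the adjusted p threshold.

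Hdac7 (chr15:97687372-97742383), best known from endothelial cells and thymocytes, was lowest right after the bout. It measured 3.54, 4.45 and 5.16 TPM in sedentary muscle, 2.96, 3.42 and 3.13 TPM in untrained and 2.96, 3.42 and 2.94 TPM in trained muscle at 0 h. At 6 h it measured 4.396, 5.04 and 4.28 and 5.49, 4.42 and 4.69 TPM, and every such library was above every 0 h library. The 0 h log2 fold changes were -0.40 (limma, Benjamini-Hochberg adjusted p = 0.0604) in untrained and -0.43 (limma, Benjamini-Hochberg adjusted p = 0.0409) in trained muscle. Without the shared library they were -0.36 (limma, Benjamini-Hochberg adjusted p = 0.208) and -0.40 (limma, Benjamini-Hochberg adjusted p = 0.131). From 0 h to 6 h the log2 change of Hdac7 was 0.47 in untrained (limma, Benjamini-Hochberg adjusted p = 0.0228) and 0.57 in trained muscle (limma, Benjamini-Hochberg adjusted p = 0.00426), folds under 1.5 as deposited. With the shared library left out the untrained change was 0.42 (limma, Benjamini-Hochberg adjusted p = 0.0976), no longer past the adjusted p threshold, and the trained change was 0.54 (limma, Benjamini-Hochberg adjusted p = 0.0228). After rescaling without the mitochondrial genome, all 4 of these changes passed both thresholds, with log2 fold changes of -0.59, -0.63, 0.59 and 0.81. Under median-of-ratios scaling only the trained change from 0 h to 6 h passed both, with a log2 fold change of 0.72. Endothelial markers were at 49.6 to 58.7 TPM in sum in sedentary muscle, 47.5 to 55.5 TPM in untrained and 49.7 to 55.5 TPM in trained muscle at 0 h, and 1 of the 6, Kdr, fell at 0 h, by 0.66 on the log2 scale in untrained (limma, Benjamini-Hochberg adjusted p = 0.021) and by 0.59 in trained muscle (limma, Benjamini-Hochberg adjusted p = 0.0326). Neither Kdr value was called without the shared library, where they were -0.63 (limma, Benjamini-Hochberg adjusted p = 0.0892) and -0.53 (limma, Benjamini-Hochberg adjusted p = 0.1295). As deposited, 73 and 41 of the 11819 genes tested were called lower at 0 h in untrained and trained muscle. Cldn5, another of the 6, was called lower from 0 h to 6 h in both training states. There 2.6% and 4.95% of all genes were called lower. It was also called lower at 6 h in untrained against sedentary muscle. The median log2 change of the 6 from 0 h to 6 h was 0.11 in untrained and 0.26 in trained muscle. The part of endothelial RNA in the Hdac7 result was not tested.

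Comparing trained with untrained muscle, both after the bout, gave 0 calls among the 10 genes at any time. At 0 h, 0% of all genes were called and 1 of the 10 had an unadjusted p below 0.05 (limma), and groups that share a library cannot be free of overlap. Without the shared library, 0% of all genes and 0 of the 10 were called at 0 h. At 6 h 2.01% of all genes were called and 1 of the 10 had an unadjusted p below 0.05, while 3 of the 10 did not overlap between the groups, compared to 18.9% of all genes. At 72 h 0.245% of all genes were called and 2 of the 10, Crtc2 and Hdac7, had an unadjusted p below 0.05, while 1 of the 10 did not overlap, compared to 28.5% of all genes. Crtc2 differed there by 0.22 (limma, Benjamini-Hochberg adjusted p = 0.278) and Hdac7 by -0.33 (limma, Benjamini-Hochberg adjusted p = 0.235). For Crem the 6 h difference was 0.31 (95% interval -0.09 to 0.70, limma, Benjamini-Hochberg adjusted p = 0.409), an interval that includes 0 and a fold above 1.5.

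Several genes of the pathway overlap a neighbour on the other strand, and the library kit does not keep strand. Sik2 overlaps Ppp2r1b, Sik3 overlaps Pafah1b2, Hdac5 overlaps G6pc3 and Hdac7 overlaps Slc48a1, with mean levels of the neighbours of 2.51, 4.02, 19.5 and 15.5 TPM. Reads from the shared stretches cannot be told apart.

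Other genes of the pathway were taken from 8 lists. These were chosen with earlier results of these data known, so their counts are descriptions and not tests of the lists. Of all genes tested, 12.5% were called in at least 1 of the 11 comparisons. Of the other CREB and ATF family genes and their coactivators, 0 of 9 tested were called in any of the 11 comparisons, and of the kinases upstream of the SIKs (Stk11 and its partners) 0 of 5. Of the cAMP and PKA genes 6 of 19 were called in at least 1 comparison.

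Of the phosphodiesterases that break down cAMP, Pde4b and Pde4d were each called at 0 h and at 6 h in at least 1 training state. Pde4b measured 10.8, 10.5 and 13.8 TPM in sedentary, 26.3, 20.9 and 25.1 TPM in untrained 0 h and 26.3, 34.9 and 26.1 TPM in trained 0 h muscle. It measured 9.16, 9.03 and 13.4 TPM in untrained and 6.01, 8.16 and 6.94 TPM in trained muscle at 6 h. The rise at 0 h was 1.02 in untrained (limma, Benjamini-Hochberg adjusted p = 0.00304) and 1.28 in trained muscle (limma, Benjamini-Hochberg adjusted p = 0.000375), and at 6 h trained muscle was below sedentary muscle with a log2 fold change of -0.69 (limma, Benjamini-Hochberg adjusted p = 0.0295), a call lost without either sedentary replicate 1 or 3 or trained 6 h replicate 1 or 3. The 0 h values without the shared library were 0.95 and 1.34, and both stayed called. Pde4d measured 21.9, 19.7 and 21.7 TPM in sedentary, 30.98, 34.1 and 30.02 TPM in untrained 0 h and 30.98, 48.4 and 35.4 TPM in trained 0 h muscle. Its log2 fold change at 0 h was 0.57 (limma, Benjamini-Hochberg adjusted p = 0.0209) in untrained muscle, a fold under 1.5, and 0.82 (limma, Benjamini-Hochberg adjusted p = 0.00148) in trained muscle, and 0.59 and 0.96 without the shared library. The trained call was lost when the 2 groups were fitted alone (limma, Benjamini-Hochberg adjusted p = 0.0871). At 6 h Pde4d was higher than in sedentary muscle by 0.75 in untrained (limma, Benjamini-Hochberg adjusted p = 0.00263) and 0.71 in trained muscle (limma, Benjamini-Hochberg adjusted p = 0.00455). Akap6, an anchor of PKA, fell at 6 h in trained muscle by 0.70 (limma, Benjamini-Hochberg adjusted p = 0.000455).

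Of the calcium-dependent kinases and protein kinases D that act on class IIa HDACs, 1 of 7 was called in at least 1 of the 11 comparisons, compared to 12.5% of all genes. Prkd2 measured 0.749, 1.91 and 1.502 TPM in sedentary, 3.91, 4.15 and 4.33 TPM in untrained 0 h and 3.91, 3.45 and 3.74 TPM in trained 0 h muscle. It rose by 1.35 (limma, Benjamini-Hochberg adjusted p = 0.000156) and 1.21 (limma, Benjamini-Hochberg adjusted p = 0.000428), with 1.38 and 1.17 without the shared library, and was at 1.15 to 1.75 TPM in untrained and 1.64 to 1.902 TPM in trained muscle at 6 h. Each rise of Prkd2 lost its call in 1 of 16 alternatives, with a highest adjusted p of 0.0614 in untrained and 0.0866 in trained muscle (limma, Benjamini-Hochberg). Among the 14-3-3 proteins, which hold phosphorylated HDACs and CRTCs in the cytoplasm, 2 of 6 rose at 0 h in both training states, where 2.97% and 3.39% of all genes were called higher. Ywhaz measured 6.45, 7.82 and 8.93 TPM in sedentary and 12.8 to 14.2 TPM in untrained muscle at 0 h, a rise of 0.76 (limma, Benjamini-Hochberg adjusted p = 0.00263). Ywhah measured 10.9, 10.96 and 11.99 TPM in sedentary and 18.6 to 20.5 TPM in untrained muscle at 0 h, a rise of 0.75 (limma, Benjamini-Hochberg adjusted p = 3.05e-05). In trained muscle at 0 h the log2 fold changes were 0.71 for Ywhaz and 0.71 for Ywhah, both short of a call under median-of-ratios scaling and after rescaling without the mitochondrial genome. The trained call of Ywhaz was lost in 3 of 17 alternatives, with a highest adjusted p of 0.0819 (limma, Benjamini-Hochberg). Both genes stayed called in both training states without the shared library, with log2 fold changes of 0.72 and 0.64 for Ywhaz and 0.71 and 0.64 for Ywhah.

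Of the partners of class IIa HDACs 2 of 9 were called in at least 1 of the 11 comparisons, compared to 12.5% of all genes. Hdac9, the remaining class IIa member, measured 1.33, 0.998 and 1.22 TPM in sedentary, 0.848, 1.13 and 0.991 TPM in untrained 6 h and 0.494, 0.426 and 0.468 TPM in trained 6 h muscle. It was lower in trained 6 h than in sedentary muscle, with a log2 fold change of -0.80 (limma, Benjamini-Hochberg adjusted p = 0.00586).

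Most CRE-driven targets rose at 0 h and fell by 6 h. At 0 h 14 of 17 tested rose in untrained and 15 of 17 in trained muscle, with 0 lower, where 2.97% and 3.39% of all genes were called higher, and the median log2 fold changes were 2.41 and 2.74, compared to 0.10 and 0.13 over all tested genes. Counts without the shared library were 13 and 15 of 17, where 2.5% and 3.11% of all genes were called higher. By 6 h, compared to 0 h, 12 of 17 had fallen and 1 had risen in untrained muscle, and 13 had fallen and 1 had risen in trained muscle, where 2.6% and 4.95% of all genes were called lower, and without the shared library 11 and 13 had fallen. Of the 17, 2 (Fosb and Gem) had a mean under 1 TPM outside the 0 h groups and entered the tested genes through these. Both are counted, as deposited, among those that rose at 0 h and fell by 6 h in both training states. As the list was chosen with earlier results known, the shares of all genes beside these counts are no test of it. Nr4a2, an orphan nuclear receptor, measured 0.0857, 0.147 and 1.98 TPM in sedentary, 70.6, 88.5 and 84.1 TPM in untrained 0 h and 70.6, 100.95 and 101.3 TPM in trained 0 h muscle. Fos, a subunit of AP-1, measured 0.3205, 0.588 and 3.44 TPM in sedentary, 88.9, 72.5 and 84.1 TPM in untrained 0 h and 88.9, 128 and 95.02 TPM in trained 0 h muscle. Junb, which pairs with Fos, measured 3.84, 3.33 and 3.55 TPM in sedentary, 54.1, 26.8 and 37.96 TPM in untrained 0 h and 54.1, 54.5 and 51.3 TPM in trained 0 h muscle. Dusp1, a phosphatase of MAP kinases, measured 15.1, 13.6 and 21.9 TPM in sedentary, 116, 75.7 and 82.9 TPM in untrained 0 h and 116, 124 and 122 TPM in trained 0 h muscle. The 0 h libraries of all 4 genes were above all sedentary libraries, and without the shared library the log2 fold changes of Nr4a2, Fos and Junb were 6.47, 5.69 and 2.99 in untrained muscle and 6.70, 6.19 and 3.71 in trained muscle.

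At 6 h the count of targets above sedentary muscle was 7 of 17 in untrained muscle, with 0 lower, and 5 of 17 in trained muscle, with 2 lower, where 3.53% and 2.41% of all genes were called higher. In trained muscle 170 of the 11819 genes tested were called lower. Without the shared library 8 targets were higher in untrained muscle, and 5 were higher and 1 lower in trained muscle. Compared between training states at 6 h, 3 of the 17 were lower in trained muscle (Fos, Fosb and Nr4a3, the last outside the naming rule and named after its values were seen) and 0 were higher, where 1.46% of all genes were called lower. Fos measured 8.51, 18.5 and 8.77 TPM in untrained and 1.22, 0.938 and 0.968 TPM in trained muscle at 6 h. Fosb, another AP-1 subunit that had been at 4.87 to 6.798 TPM in untrained and 4.87 to 8.11 TPM in trained muscle at 0 h, measured 0.253, 0.533 and 0.459 and 0.0467, 0.0336 and 0.0416 TPM. Nr4a3 measured 6.03, 12.8 and 6.65 and 2.76, 1.34 and 1.63 TPM, a log2 difference of -1.87 (limma, Benjamini-Hochberg adjusted p = 0.000473). Macrophage markers summed to 19.3 to 40.6 TPM in untrained and 14.7 to 19.97 TPM in trained muscle at 6 h, where 2 of 5 tested (Csf1r and Cd68) were lower in trained muscle and Adgre1 stayed under 1 TPM. The part of macrophage RNA in the results at 6 h, that of Sik1 included, was not tested.

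**Figure D4:**
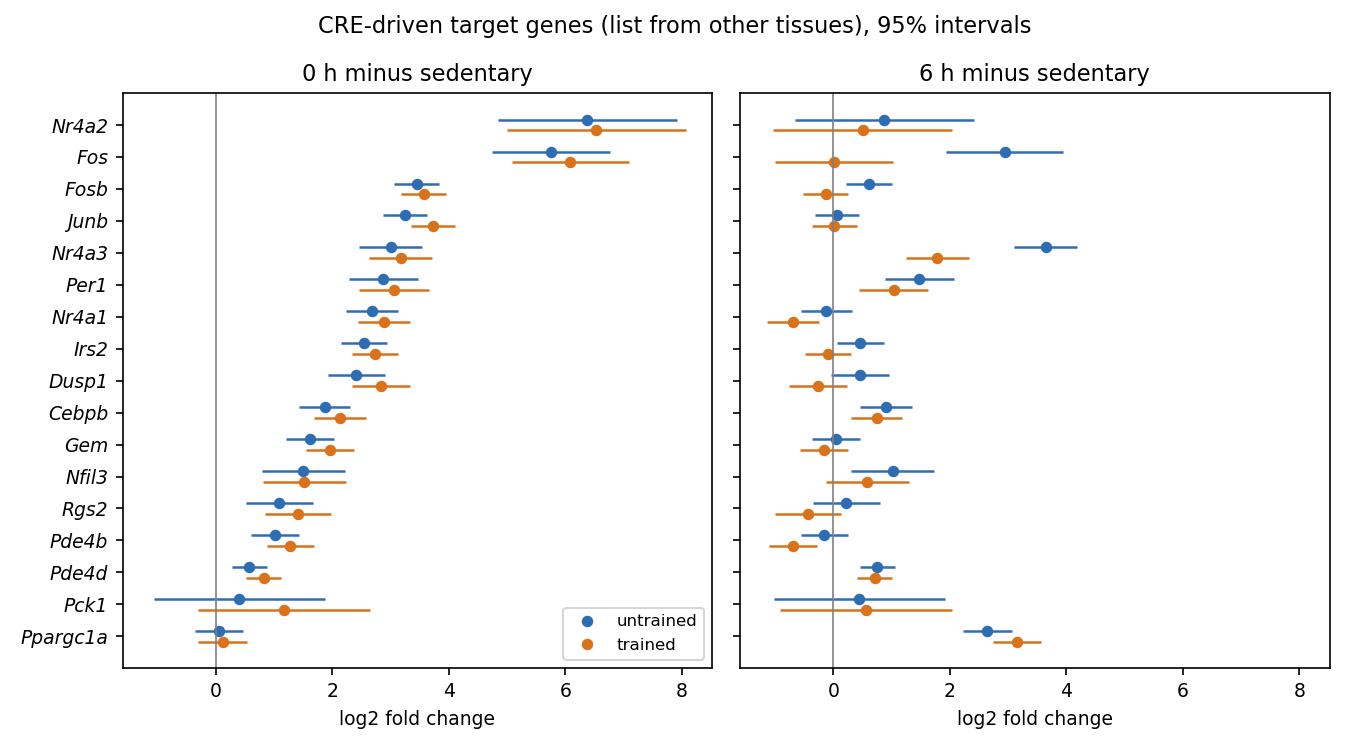
Log2 fold changes against sedentary muscle (x axis, log2(TPM + 0.5) scale) at 0 h and 6 h of the 17 tested CRE-driven targets, untrained in blue and trained in orange, with 95% intervals from limma, ordered by the untrained change at 0 h. At 0 h 14 targets rose in untrained and 15 in trained muscle; at 6 h Fos and Nr4a3 are higher in untrained than in trained muscle.

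Genes that class IIa HDACs and MEF2 regulate in muscle showed 3 of 14 higher at 0 h in each training state, where 2.97% and 3.39% of all genes were called higher. These were Klf4 and Klf2, zinc finger factors, and Myog, a myogenic factor. Klf4 measured 1.58, 1.88 and 2.57 TPM in sedentary, 27.8, 23.6 and 22.6 TPM in untrained 0 h and 27.8, 31.6 and 25.4 TPM in trained 0 h muscle. Klf2 measured 1.97, 2.46 and 4.299, 37.3, 26.99 and 30.1 and 37.3, 29.2 and 33.03 TPM in the same groups. Myog measured 0.826, 0.724 and 1.27, 6.18, 2.84 and 4.12 and 6.18, 7.39 and 3.91 TPM. None of the 0 h libraries overlapped the sedentary ones in these 3 genes, and all 3 were called with and without the shared library. Klf2 and Klf4 are also expressed by endothelial cells, and their source in bulk muscle was not tested.

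Musk, the receptor kinase of the neuromuscular junction, rose later. It measured 1.98, 1.82 and 2.69 TPM in sedentary, 5.89, 7.198 and 11.6 TPM in untrained 6 h and 7.77, 6.66 and 7.701 TPM in trained 6 h muscle. The log2 fold changes at 6 h were 1.67 (limma, Benjamini-Hochberg adjusted p = 7.39e-05) and 1.58 (limma, Benjamini-Hochberg adjusted p = 0.000251). The untrained call was lost in 1 of 16 alternatives, with a highest adjusted p of 0.0501 (limma, Benjamini-Hochberg).

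Across the 20 distinct libraries, the genes whose log2 levels were most like Sik1 were Errfi1 (Pearson r = 0.989), Maff (0.987) and Fosb (0.987). Those most like Crem were Nolc1 (0.909), Mt1 (0.907) and Gpt2 (0.900). For Hdac4 they were Vps41 (0.793), Golt1b (0.788) and Zfp874b (0.780). Between Sik1 and Crem r was 0.57, and between Sik1 and Hdac7 it was -0.72. These values describe libraries that share the groups, their number is small, and the scale of TPM is shared by all genes of a library.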

How the data were processed

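Bulk RNA-seq of quadriceps was analysed in 21 libraries, 7 groups of 3. RNA was prepared with an unstranded kit that selects polyadenylated RNA. The authors aligned reads to GRCm39 with STAR 2.7.9, quantified them with salmon 1.5.0 and deposited TPM per gene symbol; the annotation release is not given in the sources used here. TPM carries no counts, so depth is unknown and no counting interval is given. All columns were assigned, 0 being left over. Groups and replicate numbers came from the labels. Whether same-group libraries came from separate mice is not stated for each, so p values measure the spread between libraries.

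TPM was transformed to log2(TPM + 0.5) for the 11819 genes whose mean over libraries was 1 TPM or more, and a mean per group was fitted over all 21 libraries with limma 3.58.1 in R 4.3.3 (variance trend, 14 residual degrees of freedom, 12 without the shared library). P values were adjusted by Benjamini-Hochberg within each of 11 comparisons over all tested genes: 6 with sedentary muscle, 3 between training states and 2 between 6 h and 0 h. A call needed a fold of 1.5 or more and an adjusted p under 0.05. The procedure was tested on simulated data.

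The members and the 8 pathway and 9 marker lists were chosen with earlier results of these data known. All members were named; of each list, called genes with the largest change, at most 4, some of which are not reported here; and for each called member the 3 genes with the highest Pearson r. The difference between training states in the change from 0 h to 6 h, and the genes most like Sik3, were added after values were seen. Positions came from GENCODE on GRCm39 and promoter letters from RefSeq on GRCm38.p6. Alternatives were pseudocounts of 0.1 and 1, no filter, a mean of at least 5 TPM, 2 other scalings, only the groups compared, no variance trend, the replicate number as a block, no fold threshold, and leaving out the shared library or each library in turn. Figures were drawn with matplotlib 3.10.9.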

Additional observations from a re-analysis of the deposited data

Results flagged for a closer look

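Besides Nr4a3, given above, levels of 3 named genes of the pathway lists differed between trained and untrained muscle at 6 h after the bout by the test of that difference. Fos was lower in trained muscle by a log2 difference of -2.93 (limma, Benjamini-Hochberg adjusted p = 0.00181), in 3 of 3 libraries. Fosb differed by -0.75 (limma, Benjamini-Hochberg adjusted p = 0.0287), with every trained library under 0.05 TPM, and the call was lost at a pseudocount of 1 (-0.44), without untrained 6 h replicate 2 or 3 and without any one trained 6 h library. Its log2 difference was -1.83 at a pseudocount of 0.1 and -1.24 after rescaling without the mitochondrial genome. Hdac9 differed by -0.63 (limma, Benjamini-Hochberg adjusted p = 0.0422), with untrained libraries at 0.848 to 1.13 TPM and trained ones at 0.426 to 0.494 TPM, and its call was lost with the replicate block (limma, Benjamini-Hochberg adjusted p = 0.0505), at a pseudocount of 1 (-0.44), without the expression filter, without untrained 6 h replicate 2 or 3 and without any one trained 6 h library. At a pseudocount of 0.1 its log2 difference was -0.95. A fit on the 6 libraries alone called none of the 3. With 3 libraries per group no search for single outlying libraries was made.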

How the results depend on the processing

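No called value changed sign under any alternative, while uncalled values near 0 of Crtc2, Crtc3, Sik2, Sik3, Hdac4 and Hdac5 did under another scaling, and 180 counts of members stayed within 1.5 times and 7 did not. In untrained muscle at 6 h against sedentary muscle, 0 members were called when only these groups were fitted, compared to 2. From 0 h to 6 h in untrained muscle 2 members (Sik1 and Hdac7) were called after rescaling without the mitochondrial genome and the highest 10 genes, and 2 with no fold threshold, compared to 1. From 0 h to 6 h in trained muscle 4 (Creb1, Sik1, Hdac4 and Hdac7) were called at a pseudocount of 0.1, 1 (Sik1) when only these groups were fitted and 5 with no fold threshold, compared to 2. Leaving out each library in turn gave 1 to 2 calls from 0 h to 6 h in untrained muscle (2 without untrained 6 h replicate 3, where Creb1 joined Sik1), 2 to 3 in trained muscle, 2 to 3 in trained 0 h against sedentary muscle, and no change in the other 8 comparisons. The causes were not tested.

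Replicate numbers were not taken to pair the libraries: of 33 same-numbered pairs 5 deviated together with r above 0.1, and the others lay between -0.12 and 0.097. All 3 pairs were above 0.1 only between trained and untrained muscle at 0 h, where 1 pair is the library counted in both groups (r = 0.686) and the other 2 had r = 0.132 and 0.134, which leaves 2 pairs of distinct libraries. With the replicate block the members called were 2 at 0 h in either training state, 2 in untrained and 1 in trained muscle at 6 h, 1 and 2 from 0 h to 6 h, and 0 in the other 5 comparisons, as without it.

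Median-of-ratios scaling moved the median log2 fold change of all genes by -0.11 (untrained 0 h), -0.14 (trained 0 h) and 0.15 (trained 6 h minus 0 h), and rescaling by -0.16, -0.17 and 0.18. Calls from 0 h to 6 h in trained muscle were 179 higher and 585 lower as deposited, 312 and 341 under median-of-ratios scaling, and 503 and 396 after rescaling. At 0 h against sedentary muscle, calls after rescaling were 323 higher and 190 lower in untrained muscle (351 and 73 as deposited) and 323 higher and 141 lower in trained muscle (401 and 41). Fitting only the groups compared called 220 genes in untrained 6 h muscle (522 in the joint fit), 264 in trained 6 h muscle (455), 262 in trained 0 h muscle (442), 276 from 0 h to 6 h in untrained muscle (548) and 27 between training states at 6 h (238).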

Other observations

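The genes whose levels were most like Sik3 over the 20 distinct libraries were Edc3 (Pearson r = 0.846), an mRNA decapping factor, Mrps33 (0.836), a mitochondrial ribosomal protein, and Srrd (0.729). These were looked up after the uneven values of Sik3 were seen, and the libraries above 20 TPM belonged to untrained 0 h (the library shared with trained 0 h), trained 0 h and untrained 6 h. The correlation of Sik3 with Sik1 was 0.45 and with Sik2 -0.06.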
